A study of Mus musculus with 6 samples.

Results

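Genes for extracellular matrix proteins were compared between HDAC1 knockout and wild-type mouse embryonic stem cells. They were chosen by gene symbol alone, as collagen chains, laminins, fibulins, fibrillins, nidogens, thrombospondins, lysyl oxidases, matrix metalloproteinases, Adamts proteases, their Timp inhibitors, and fibronectin (Fn1), Sparc, lumican (Lum), decorin (Dcn), biglycan (Bgn), tenascin C (Tnc), vitronectin (Vtn) and perlecan (Hspg2). Lama1, Lamb1, Lamc1, Col4a1 and Col4a2, the main chains of the early embryonic basement membrane, were left out of the set. The rule found 69 of the 8251 genes that the arrays measured with a probe set of their own. Each gene was read from its brightest probe set, judged by the mean of the 6 arrays. A further probe set whose annotation names 2 genes, only 1 of them a matrix gene, was not used.

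RNA from 3 HDAC1 knockout and 3 wild-type samples was hybridised to 1 Affymetrix array each. HDAC1 is a histone deacetylase that works in several corepressor complexes. Both kinds of cell line were derived from embryos of a single litter, and the cells were not treated. The culture protocol names LIF on gelatin or feeder cells without LIF as alternatives, and the condition of each sample is not given. The labels call the samples biological replicates and name no line or culture for any of them. P-values therefore measure only how far these samples spread, and that spread may be technical. The sex of the lines is not given either.

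The extracellular matrix is the network of secreted proteins that surrounds cells. Fibrillar collagens such as types I, III and V form its fibres, laminins and nidogens build the basement membrane on which epithelia rest, and fibulins, small proteoglycans and glycoproteins link and organise these networks. Matrix metalloproteinases cut matrix proteins and Timp proteins block them. Mouse embryonic stem cells make laminins and type IV collagen. Fibroblasts, which can serve as feeder cells in such cultures, make type I collagen, decorin and biglycan.

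Hdac1 itself had signals of 118.3, 110.1 and 197.1 in knockout cells, against 2323.4, 2199.7 and 2407.8 in wild-type cells. The targeted gene was thus low in each sample labelled as knockout. All 12 markers of pluripotent cells that were examined, Pou5f1, Nanog and Sox2 among them, lay above background in both genotypes. Median signals were 186.6 to 200.4 on the knockout arrays and 200.1 to 207.5 on the wild-type arrays. The background level was a signal of 116.4, below which 95% of the values of 19 bacterial and yeast controls lay. Signals depend on the probe set, so they are compared here between genotypes and not between genes.

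Of the 69 matrix genes, 5 fell and 1 rose in HDAC1 knockout cells at an adjusted p under 0.05 by limma, where 1.88% of all 8251 genes fell and 2.70% rose (1.63% and 2.25% of all 12422 probe sets). The genes that fell were Col1a1, a chain of type I collagen, Timp3, an inhibitor of metalloproteinases, Bgn, Mmp14, a membrane-bound metalloproteinase, and Fbln2, a fibulin, and the gene that rose was Nid2, a nidogen of the basement membrane. The log2 difference was below 0 for 49 of the 69 (71.0%) and for 54.7% of all genes, with medians of -0.24 and -0.04. At an unadjusted p under 0.05, 17 matrix genes were lower and 4 higher, beside 8.65% and 8.45% of all genes. The arrays of the genotypes did not overlap for 23 matrix genes, 20 of them lower in knockout cells (29.0%, against 12.1% of all genes) and 3 higher (4.35%, against 10.3%). Mmp9, at background in both genotypes, is 1 of the 20.

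Many of the 69 gave no usable signal, and their log2 differences, which the counts and medians over the 69 and over each role include, have no direction that can be read. For 26 of them both genotypes were at background, including the cartilage collagen gene Col2a1, the proteoglycan gene Lum, vitronectin (Vtn) and the proteases Mmp7, Mmp8, Mmp9 and Adamts1. The mean signal over all 6 arrays lay above background for 36, with Col4a5 just inside at 116.5 and Nid1 just outside at 114.5. Among these 36 the median log2 difference was -0.31 and 29 (80.6%) were below 0, against a median of -0.03 and 53.9% of the 5685 genes above background. The 6 calls all lay among the 36, beside 2.64% of genes above background that fell and 3.83% that rose. Arrays did not overlap for 17 of the 36 on the lower side (14.0% of genes above background) and for 3 on the higher side (12.8%). By array, the median of the 36 from each gene's wild-type mean was -0.35, -0.28 and -0.32 on the 3 knockout arrays.

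**Figure D1:**
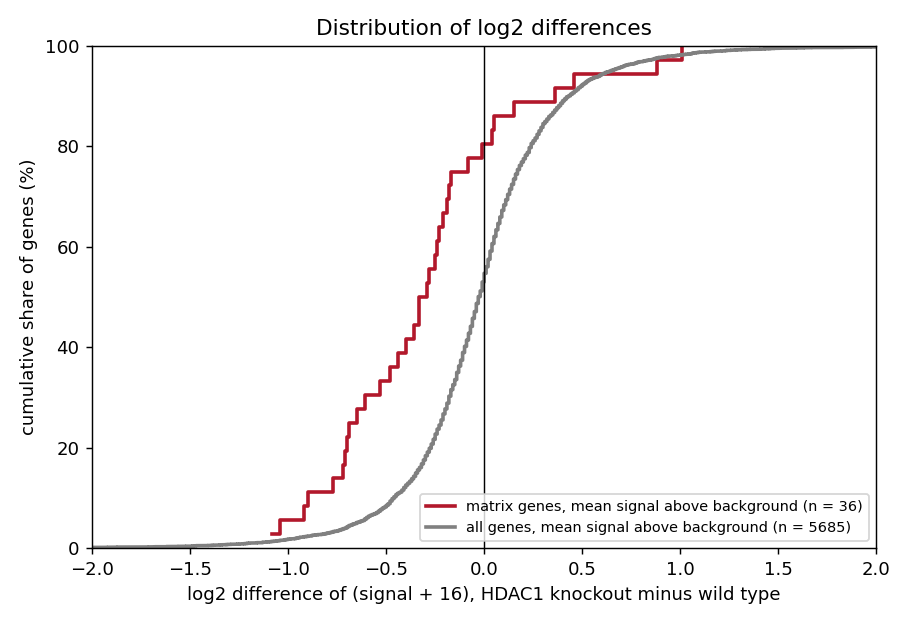
Cumulative share of genes (y axis, %) by log2 difference, HDAC1 knockout minus wild type (x axis), for 36 matrix genes (red) and 5685 genes of all kinds (grey) whose mean signal was above background. The red curve lies left of the grey one over most of the range, and 80.6% of the matrix genes against 53.9% of all genes lie below 0.

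The same arrays differed in other ways. Of 16 fibroblast markers that are not in the matrix set, 4 (25%, against 1.88% of all genes) fell, namely Tagln, S100a4, Lgals1 and Acta2. None of the 16 rose, and their median log2 difference was -0.49. Their summed signal was 11548.4 to 12756.6 on the knockout arrays and 17994.0 to 18551.8 on the wild-type arrays, most of it from Lgals1. The arrays did not overlap for 7 of the 16 (43.8%, against 12.1% of all genes), all lower in knockout cells. These were the 4 that fell and, without a call, Pdgfra, Cnn1 and Twist1. Pdgfra averaged 472.6 ± 65.8 in knockout cells and 664.7 ± 105.0 in wild-type cells (SD, n = 3 each), while Cnn1 and Twist1 were at background in knockout cells alone. Thy1, Cav1, Twist2 and Vim overlapped between genotypes, and Pdgfrb, Cdh11, Prrx1, Fap and Postn were at background in both. The part of these markers in the lower matrix signals was not tested. Of the 12 pluripotent cell markers 6 rose (50%, against 2.70% of all genes) and none fell, with a median log2 difference of 0.63. Their summed signals were 68879.4 to 70991.0 on knockout arrays and 50208.5 to 53795.1 on wild-type arrays. Nanog, a core pluripotency factor, was 2.11-fold higher and Sox2 1.40-fold. Pou5f1, Dppa5a, Tdgf1 and Utf1 overlapped between genotypes, with log2 differences of 0.1, 0.09, -0.02 and -0.01. The part of the pluripotent marker difference in the lower matrix signals was not tested either. In bulk samples, fewer cells of a kind and less RNA per cell cannot be told apart. The 3' to 5' ratio of the beta-actin control, a sign of RNA quality, was 1.04 to 1.09 on knockout arrays and 1.15 to 1.21 on wild-type arrays (exact two-sided permutation p = 0.1, the smallest that 3 arrays against 3 allow). The same ratio of the Gapdh control was 0.77 to 0.80 on knockout arrays and 0.80 to 0.81 on wild-type arrays (exact two-sided permutation p = 0.4). Their part in these results was not tested.

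**Figure D2:**
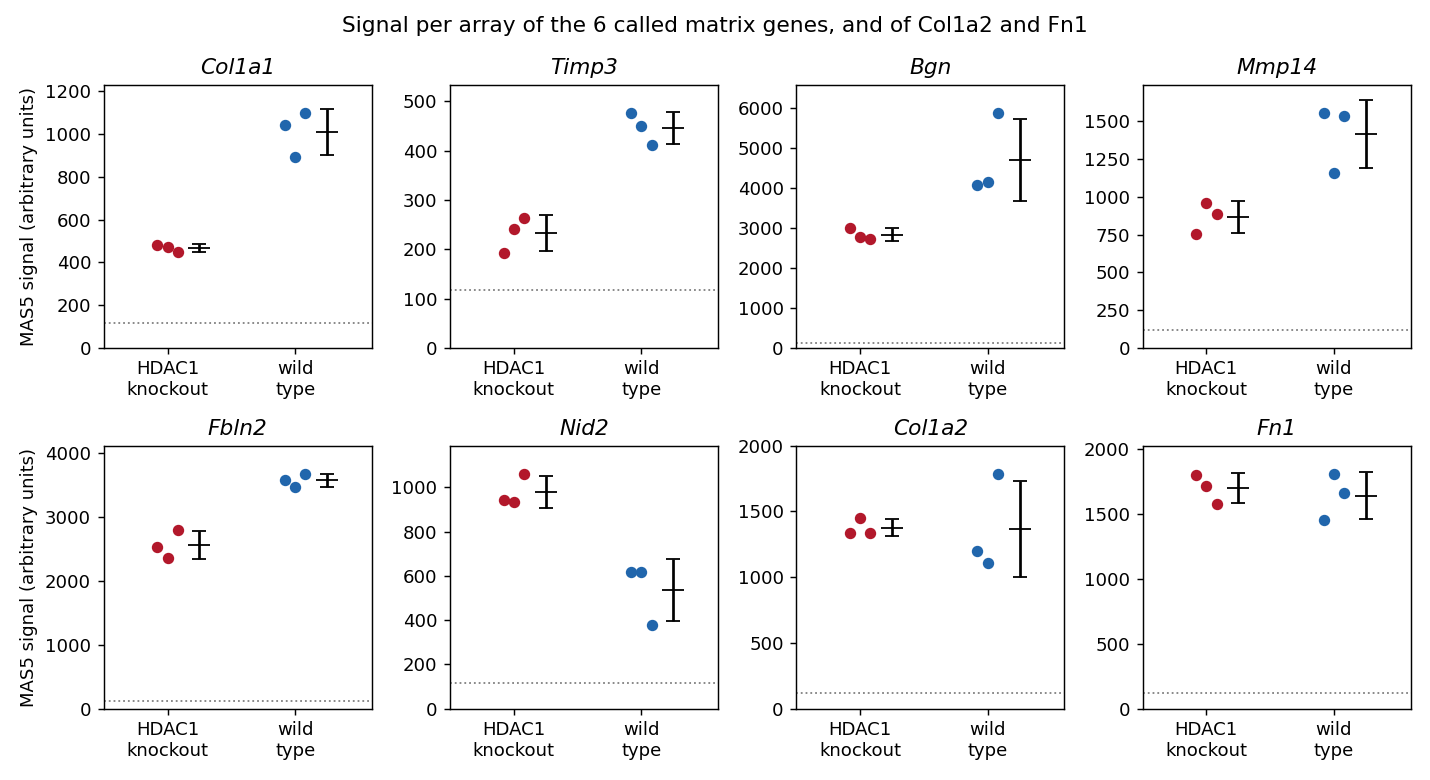
Signal per array (y axis, arbitrary units, from 0) of the 6 matrix genes that were called and of Col1a2 and Fn1, in HDAC1 knockout (red) and wild-type (blue) cells. Bars give the mean ± SD of 3 arrays and the dotted line the background level of 116.4. The genotypes do not overlap for Col1a1, Timp3, Bgn, Mmp14, Fbln2 and Nid2, and overlap for Col1a2 and Fn1.

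Promoter windows of 300 bases, from 250 bases before to 50 after the start of the gene, were available for 47 of the 69 genes from RefSeq (build GRCm38.p6), among them 4 of the 6 called genes, Timp3, Fbln2, Mmp14 and Bgn. They are shown because these 4 genes were called lower. Letters in capitals mark the GC box, GGGCGG on either strand, to which Sp1-type factors can bind. The start used was the annotated 5' end of the gene for 31 of the 47 windows and another start of the RefSeq table for the other 16, up to 7641 bases away, among them Fbln2, whose start lies 304 bases from that end. The Timp3 window lies at chr10:86300162-86300461, that of Fbln2 at chr6:91212514-91212813, that of Mmp14 at chr14:54431348-54431647 and that of Bgn at chrX:73483351-73483650, all on the plus strand and printed 5' to 3'.
Timp3: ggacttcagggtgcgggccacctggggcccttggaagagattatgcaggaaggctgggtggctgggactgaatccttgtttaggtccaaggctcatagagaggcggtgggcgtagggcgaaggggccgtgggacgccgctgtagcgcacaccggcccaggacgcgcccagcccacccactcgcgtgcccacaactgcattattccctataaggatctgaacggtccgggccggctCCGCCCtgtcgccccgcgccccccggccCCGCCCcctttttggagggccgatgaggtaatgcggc
Fbln2: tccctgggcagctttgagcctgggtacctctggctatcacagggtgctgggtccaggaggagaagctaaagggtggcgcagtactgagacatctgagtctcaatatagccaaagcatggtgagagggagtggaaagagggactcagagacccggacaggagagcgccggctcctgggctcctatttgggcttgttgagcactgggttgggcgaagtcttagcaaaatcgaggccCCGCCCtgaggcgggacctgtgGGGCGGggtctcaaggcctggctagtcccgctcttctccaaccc
Mmp14: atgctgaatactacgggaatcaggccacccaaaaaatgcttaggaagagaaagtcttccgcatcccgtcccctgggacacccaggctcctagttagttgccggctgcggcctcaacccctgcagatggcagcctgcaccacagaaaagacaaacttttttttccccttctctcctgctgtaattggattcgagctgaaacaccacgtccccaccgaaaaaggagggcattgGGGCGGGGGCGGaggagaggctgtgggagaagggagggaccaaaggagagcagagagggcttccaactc
Bgn: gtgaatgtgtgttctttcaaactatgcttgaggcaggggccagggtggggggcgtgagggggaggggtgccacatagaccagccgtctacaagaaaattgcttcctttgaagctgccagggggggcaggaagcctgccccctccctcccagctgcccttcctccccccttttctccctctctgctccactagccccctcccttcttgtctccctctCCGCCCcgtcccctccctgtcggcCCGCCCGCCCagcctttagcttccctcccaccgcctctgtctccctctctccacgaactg
The windows of Timp3, Fbln2 and Mmp14 held 2 GC boxes each and that of Bgn held 3, the last 2 overlapping. The GC box was found in all 4 of these windows, in 25 of the 47 matrix windows (53.2%) and in 35.9% of 27025 windows of all genes. Here all genes are those with a RefSeq window, 1 window each, and not the 8251 genes of the arrays. The TATA box, TATAAA, was in none of the 4, in 14 of 47 (29.8%) and in 14.2% of all. The CCAAT box was in 1 of the 4 (Mmp14), in 29.8% of the 47 and in 38% of all. The AP-1 site, TGANTCA, was in none of the 4, in 5 of 47 (10.6%) and in 7.92% of all. Such matches describe the letters of these windows and not the binding of any factor.

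Among the fibrillar collagens, 1 of 8 fell and none rose, with a median log2 difference of -0.11. Col1a1, the chain present in a double dose in type I collagen, had signals of 483.1, 471.9 and 448.8 in knockout cells, against 1041.1, 891.9 and 1098.4 in wild-type cells. It fell 2.11-fold, a log2 difference of -1.08 ± 0.13 (SE, adjusted p = 0.000745), and its second probe set also fell (396.3 in knockout and 628.2 in wild-type cells, adjusted p = 0.0462). Folds are on the scale of log2(signal + 16), which understates changes of dim genes. Col1a2, the partner chain of the same trimer, had 1340.0, 1450.6 and 1338.2 in knockout cells and 1200.1, 1110.9 and 1786.5 in wild-type cells. These overlap, and the log2 difference of 0.04 ± 0.16 was not called (adjusted p = 0.95).

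Neither type V nor type III collagen chains were called. Col5a2, a chain of type V, had 173.7, 181.6 and 121.7 in knockout cells, against 488.9, 239.1 and 330.7 in wild-type cells, with no overlap. The log2 difference of -1.04 ± 0.31 missed the threshold (adjusted p = 0.112). Col5a1, the other type V chain in the set, averaged 727.1 ± 81.2 in knockout cells and 731.4 ± 73.8 in wild-type cells (SD, n = 3 each). Col3a1, the single chain of type III collagen, had 142.9, 189.8 and 86.6 in knockout cells and 223.1, 208.4 and 248.4 in wild-type cells, again without overlap or a call (adjusted p = 0.371). The pairing of chains within an array is given as a description, since the pairs were picked with the values already known. The log2 signal of Col1a1 minus that of Col1a2 was -1.59 to -1.44 on knockout arrays and -0.69 to -0.20 on wild-type arrays. That of Col5a2 minus Col5a1 was -2.27 to -1.97 on knockout arrays and -1.38 to -0.62 on wild-type arrays.

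None of the 21 other collagen chains was called by limma, with 2 higher and 1 lower at an unadjusted p under 0.05, and their median log2 difference was -0.17. For 10 of them both genotypes were at background. Col18a1, whose protein sits in basement membranes and gives rise to endostatin, had 2609.1, 2451.9 and 2344.3 in knockout cells, against 2649.0, 3024.7 and 2799.8 in wild-type cells. The groups did not overlap, yet the log2 difference was only -0.19 ± 0.08 (adjusted p = 0.31). Of its 4 further probe sets, 2 fell (log2 differences of -0.36 and -0.34, adjusted p = 0.0407 and 0.0494) and 2 did not (0.19 and -0.00). Col9a1, a chain of the cartilage collagen IX, stood on the other side with 358.4, 257.2 and 423.5 in knockout cells and 216.5, 178.4 and 106.9 in wild-type cells. It was 2.01-fold higher without overlap and without a call (adjusted p = 0.128). Of its partner chains, Col9a2 had a log2 difference of 0.36 (adjusted p = 0.333) and Col9a3 of -0.17 (adjusted p = 0.861), both with overlapping groups. The beaded-filament collagens Col6a1, Col6a2 and Col6a3 had log2 differences of -0.29, -0.23 and -0.18, with overlap in each.

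**Figure D3:**
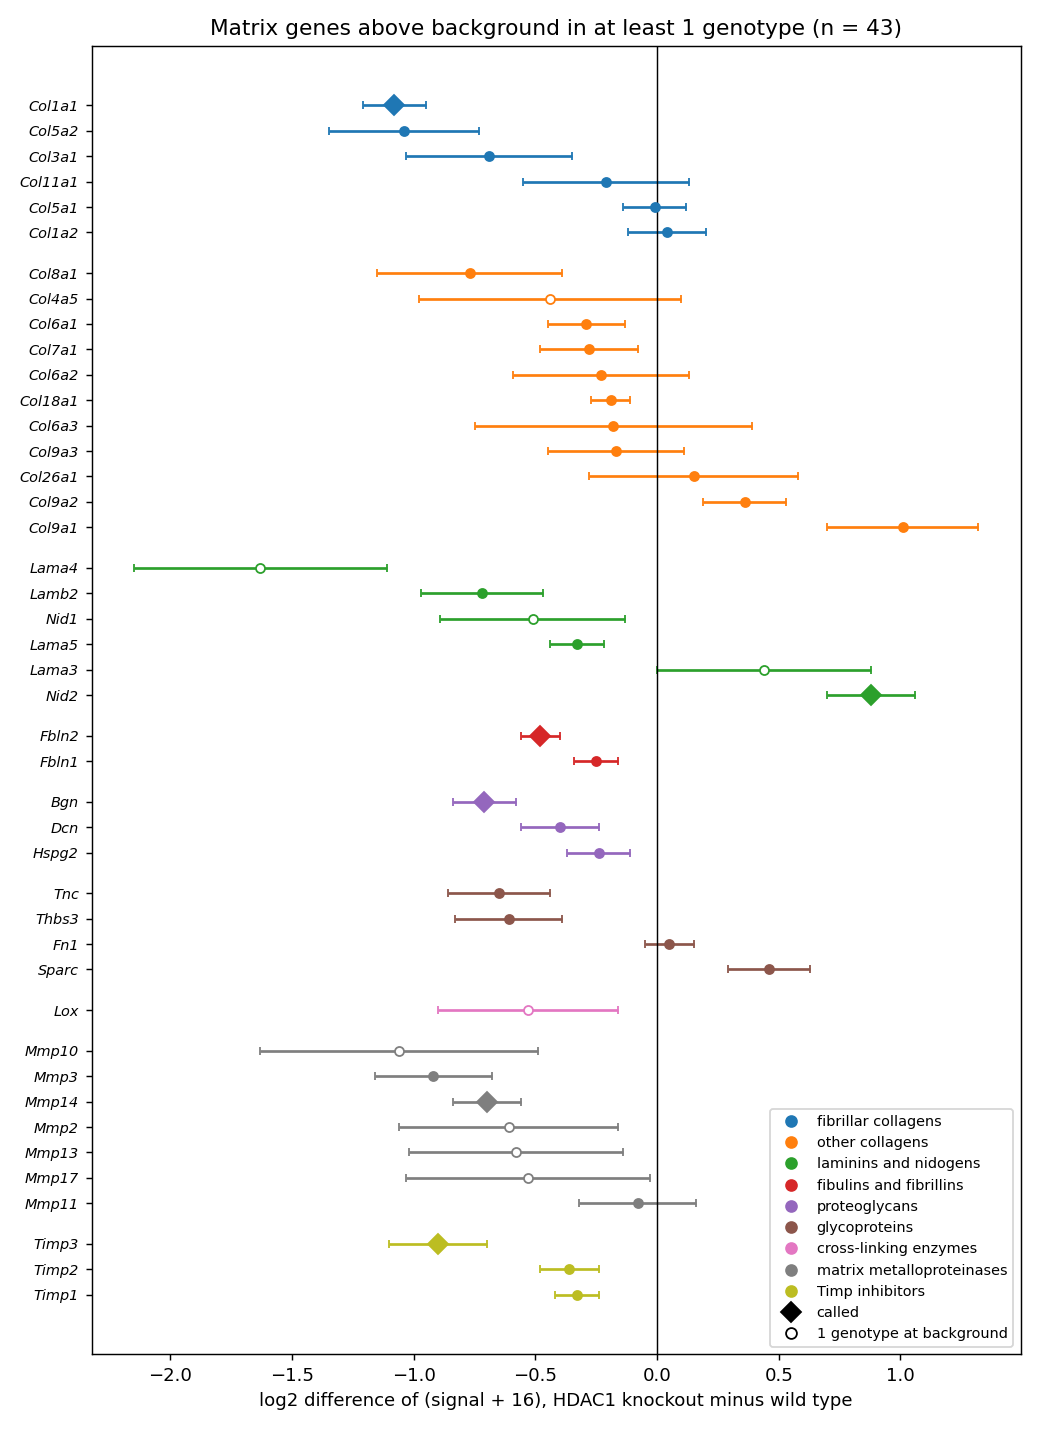
Log2 difference of (signal + 16), HDAC1 knockout minus wild type, with its standard error (x axis), for the 43 matrix genes above background in at least 1 genotype, by role. Diamonds are the 6 called genes and open circles genes with 1 genotype at background. Nid2 is the called gene right of 0, and Col1a1, Fbln2, Bgn, Mmp14 and Timp3 are those left of it.

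Of the 8 laminins and nidogens, 1 rose and none fell (1 and 3 at an unadjusted p under 0.05), with a median log2 difference of -0.17. Nid2, which bridges laminin and type IV collagen, had 942.2, 932.4 and 1060.5 in knockout cells, against 616.4, 616.5 and 376.2 in wild-type cells. All knockout arrays lay above all wild-type arrays, a 1.84-fold rise (log2 difference 0.88 ± 0.18, adjusted p = 0.0251). Nid1, its paralog, averaged 92.3 ± 22.9 in knockout cells, at background, and 136.8 ± 22.0 in wild-type cells (SD, n = 3 each), at least 1.15-fold lower and not called (adjusted p = 0.605). "At least" marks a bound, in which the knockout arrays under background were set to that level and the wild-type arrays were left as measured.

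No laminin chain of the set was called. Lama5, an alpha chain found in many epithelial basement membranes, had 937.7, 1048.4 and 999.5 in knockout cells, against 1276.9, 1095.9 and 1416.9 in wild-type cells (log2 difference -0.33 ± 0.11, adjusted p = 0.181). Lamb2 had 186.1, 150.4 and 198.1 in knockout cells, against 254.1, 325.0 and 334.9 in wild-type cells (log2 difference -0.72 ± 0.25, adjusted p = 0.183). Neither overlapped between genotypes. Lama4 was at background on all knockout arrays and on 2 of 3 wild-type arrays (at least 1.17-fold lower, adjusted p = 0.137). Of the 5 chains left out by the rule, Lama1 rose 2.36-fold (1183.6 ± 86.6 in knockout cells and 496.3 ± 92.7 in wild-type cells, SD, n = 3 each, adjusted p = 0.000747). Lamb1, Lamc1, Col4a1 and Col4a2 had no call, with adjusted p between 0.58 and 0.98. Of 13 primitive endoderm markers, whose cells make much basement membrane, 1 fell (Lrp2) and none rose, with a median log2 difference of -0.05. Their summed signals were 2405.4 to 3001.7 in knockout cells and 2281.5 to 3216.7 in wild-type cells. Arrays did not overlap for 2 on the lower side (15.4%, against 12.1% of all genes) and 2 on the higher side (15.4%, against 10.3%). The lower ones were Lrp2 and Foxa2, the latter at background in both genotypes. The higher ones, without a call, were Cubn (278.4 in knockout cells and 177.4 in wild-type cells) and Sox17 (269.7 and 104.4). The wild-type arrays of Sox17 were 42.8, 37.9 and 232.5, at background by their mean.

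Of the fibulins and fibrillins, Fbln2 fell and Fbn2 was at background. Fbln2, which binds nidogen and fibronectin, had 2535.2, 2364.8 and 2796.3 in knockout cells, against 3584.1, 3474.0 and 3677.1 in wild-type cells. It fell 1.40-fold (log2 difference -0.48 ± 0.08, adjusted p = 0.0097). Its paralog Fbln1 had 1470.5, 1505.1 and 1387.9 in knockout cells, against 1650.8, 1696.6 and 1841.5 in wild-type cells. The genotypes did not overlap for Fbln1 either, at a smaller log2 difference of -0.25 ± 0.09 without a call (adjusted p = 0.198).

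Of 4 proteoglycan genes 1 fell and none rose, with a median log2 difference of -0.32, and Lum was at background. Bgn, a small leucine-rich proteoglycan that binds collagen, had 3006.8, 2761.1 and 2714.8 in knockout cells, against 4072.6, 4150.0 and 5870.0 in wild-type cells. It fell 1.64-fold (log2 difference -0.71 ± 0.13, adjusted p = 0.013), and its dimmer probe set was lower without overlap (log2 difference -0.33, adjusted p = 0.246). Bgn lies on the X chromosome, as do Timp1 and Col4a5. Of 259 X-linked genes, 52 were called higher and 6 lower, where 2.70% and 1.88% of all genes were. The share called either way was 22.4%, against 4% of autosomal genes. Their log2 difference was below 0 for 34.4%, against 55.4% of autosomal genes, with medians of 0.23 and -0.04. Bgn thus stood on the lower side of its chromosome. Decorin (Dcn), the closest relative of Bgn, had 551.7, 761.1 and 827.7 in knockout cells, against 1049.9, 881.2 and 883.7 in wild-type cells, with no overlap, and was not called (log2 difference -0.40 ± 0.16, adjusted p = 0.246). Perlecan (Hspg2), the large basement membrane proteoglycan, averaged 838.0 ± 113.0 in knockout cells and 993.6 ± 118.0 in wild-type cells (SD, n = 3 each), with overlap.

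None of the 6 glycoproteins was called by limma, with 1 higher and 2 lower at an unadjusted p under 0.05. Fibronectin (Fn1), which cells bind through integrins, had 1800.1, 1709.4 and 1574.0 in knockout cells and 1447.5, 1805.3 and 1657.8 in wild-type cells. The groups overlapped and the log2 difference was 0.05 ± 0.10 (adjusted p = 0.889). Tenascin C (Tnc) had 211.0, 202.1 and 236.9 in knockout cells, against 331.0, 399.8 and 319.9 in wild-type cells (adjusted p = 0.158). The thrombospondin gene Thbs3 had 337.2, 345.2 and 222.7 in knockout cells, against 454.2, 545.7 and 398.0 in wild-type cells (adjusted p = 0.195). Both were lower without overlap, at 1.57-fold and 1.53-fold. Sparc, a collagen-binding protein of basement membranes and bone, was on the higher side, with 1011.0, 1107.3 and 1203.4 in knockout cells and 830.0, 1008.3 and 605.2 in wild-type cells. Its highest wild-type array lay just under its lowest knockout array, and the log2 difference of 0.46 ± 0.17 was not called (adjusted p = 0.21). The cross-linking enzyme gene Lox averaged 115.2 ± 42.4 in knockout cells, at background, and 168.9 ± 24.4 in wild-type cells (SD, n = 3 each). Its groups overlapped and it was not called (adjusted p = 0.566). Loxl1 was at background in both genotypes.

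Of 13 matrix metalloproteinase genes 1 fell and none rose, with a median log2 difference of -0.53 and 6 at background in both genotypes. Only 3, Mmp14, Mmp3 and Mmp11, had a mean signal over all arrays above background, so the median rests mostly on dim genes. Mmp14, which sits on the cell surface and activates pro-Mmp2, had 752.8, 959.1 and 885.1 in knockout cells, against 1555.5, 1158.9 and 1536.5 in wild-type cells. It fell 1.62-fold (log2 difference -0.70 ± 0.14, adjusted p = 0.0205). Mmp3, or stromelysin, had 201.9, 339.4 and 286.7 in knockout cells, against 439.7, 677.2 and 485.9 in wild-type cells. This 1.89-fold lower signal without overlap missed the threshold (adjusted p = 0.0634). Mmp11 averaged 307.4 in knockout cells and 325.6 in wild-type cells and overlapped.

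All 3 Timp genes had lower signals in every knockout array than in any wild-type array, as had 12.1% of all genes. Of the 3, 1 fell, where 1.88% of all genes did. Timp3, which binds to the matrix itself, had 192.2, 240.6 and 263.5 in knockout cells, against 476.0, 449.3 and 411.5 in wild-type cells. It fell 1.87-fold (log2 difference -0.90 ± 0.20, adjusted p = 0.0332). Timp1 had 3437.9, 2774.7 and 3101.9 in knockout cells, against 3960.3, 3854.1 and 3841.5 in wild-type cells (log2 difference -0.33 ± 0.09, adjusted p = 0.0813). Timp2, which takes part in the activation of Mmp2 by Mmp14, had 720.2, 866.0 and 698.3 in knockout cells, against 890.2, 1065.7 and 982.6 in wild-type cells (log2 difference -0.36 ± 0.12, adjusted p = 0.183).

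The calls differed in how far they rested on single arrays. Col1a1 was called with any 1 array left out, whereas Fbln2 lost its call without knockout replicate 2, Bgn without knockout replicate 2 or 3, Nid2 without any 1 of the knockout arrays, Mmp14 without knockout replicate 1 or 3 or wild-type replicate 1 or 3, and Timp3 without any 1 of the 6. The adjusted p without those arrays reached 0.0627 for Fbln2, 0.0692 for Bgn, 0.114 for Nid2, 0.0898 for Mmp14 and 0.126 for Timp3, and at most 0.0065 for Col1a1. The count of matrix genes lower was 2 without knockout replicate 2 or 3 and 3 without wild-type replicate 1 or 3, and no gene was higher without any 1 knockout array. When the variance was not modelled as a trend of signal, Col1a1 was the 1 matrix gene called (adjusted p = 0.0372).

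Of the matrix genes, 21 had more than 1 probe set. Of their 28 further probe sets, 13 were above background in at least 1 genotype, 11 of which had the sign of the brightest, and 3 were called, all lower (1 of Col1a1 and 2 of Col18a1). The exceptions in sign were 1 probe set each of Col18a1 and Col1a2. The second probe set of Col5a1 had 116.6 in knockout cells and 194.4 in wild-type cells (log2 difference -0.64, adjusted p = 0.461), where the brightest showed no difference.

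**Figure D4:**
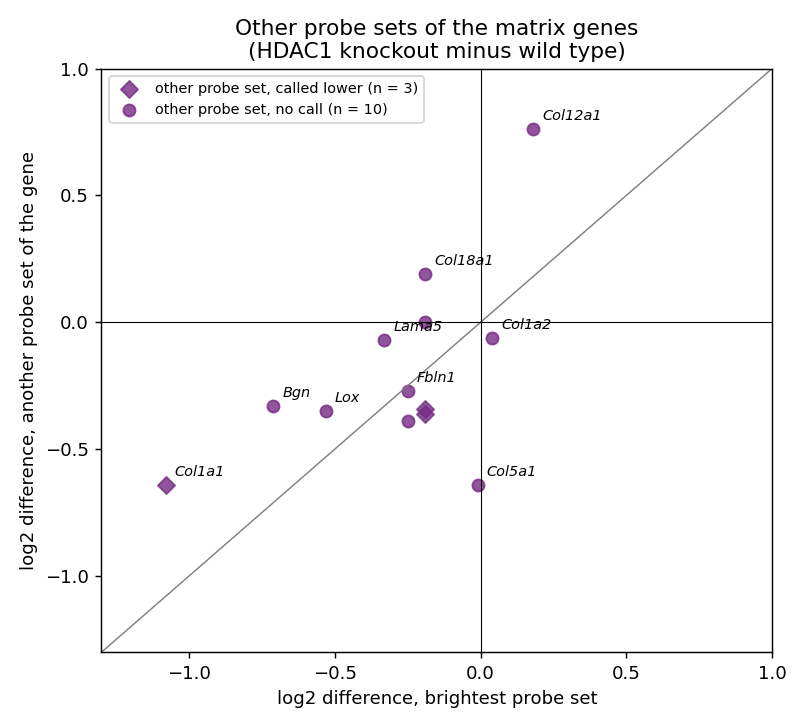
Log2 difference, HDAC1 knockout minus wild type, of the 13 further probe sets above background (y axis) against that of the brightest probe set of the same gene (x axis), with the diagonal. Diamonds are the 3 further probe sets called lower, which belong to Col1a1 and Col18a1, and circles those with no call.

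A further 4 lists of genes with a part in the matrix were counted beside the 4.58% of all genes that were called in either direction. The share called was 6.67% for collagen folding and processing, 2.5% for other matrix proteins, 5% for matrix receptors and 18.8% for TGF-beta signalling. Of 15 genes for collagen folding and processing, 12 (80%, against 54.7% of all genes) had log2 differences below 0, with a median of -0.07. Of the 15, 1 rose and none fell. It was Crtap, a partner of the prolyl 3-hydroxylase of collagen, 1.33-fold higher (2512.5 ± 113.6 in knockout and 1890.7 ± 126.8 in wild-type cells, SD, n = 3 each, adjusted p = 0.0255). Arrays did not overlap for 2 of the 15 on the lower side (13.3%, against 12.1% of all genes) and 2 on the higher side (13.3%, against 10.3%). The higher ones were Crtap and, without a call, Colgalt1. The lower ones, at background by their means in knockout cells and without a call, were Mrc2 (113.8 in knockout and 354.0 in wild-type cells, adjusted p = 0.0597) and P3h4 (98.7 and 220.0). The collagen chaperone gene Serpinh1 averaged 1763.0 ± 235.2 in knockout cells and 1822.7 ± 46.6 in wild-type cells, with overlap. Of 40 other matrix proteins, 1 fell and none rose, with a median of -0.02 and 23 at background in both genotypes. That gene was Ccn2, or connective tissue growth factor, with 218.5, 175.9 and 229.8 in knockout cells, against 743.6, 638.7 and 512.2 in wild-type cells. It fell 2.87-fold (log2 difference -1.52 ± 0.20, adjusted p = 0.00187). Spock2 stood on the other side, 3.46-fold higher without overlap (633.8 ± 121.8 in knockout and 200.6 ± 124.7 in wild-type cells, SD, n = 3 each). It just missed the threshold (adjusted p = 0.0509). Arrays did not overlap for 7 of the 40 on the lower side (17.5%, against 12.1% of all genes) and 5 on the higher side (12.5%, against 10.3%).

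Of 20 matrix receptor genes, 1 fell and none rose, with a median log2 difference of -0.33 and 16 below 0 (80%, against 54.7% of all genes). Without overlap of the arrays, 6 of the 20 were lower and 2 higher, beside 12.1% and 10.3% of all genes. The higher ones, without a call, were Itgb4 (220.8 in knockout and 104.3 in wild-type cells, the latter at background) and Itgb5 (719.9 and 637.7). The lower ones without a call were Itga3, Itgav, Dag1, Itga6 and Sdc2. Itgb1, the beta chain shared by most matrix-binding integrins, fell 1.26-fold (4486.2 ± 261.6 in knockout and 5671.6 ± 236.5 in wild-type cells, SD, n = 3 each, adjusted p = 0.0401). Of 16 TGF-beta signalling genes, a pathway that drives collagen synthesis in fibroblasts, 2 rose and 1 fell, with a median log2 difference of 0.13. Arrays did not overlap for 5 on the higher side (31.2%, against 10.3% of all genes) and 3 on the lower side (18.8%, against 12.1%). Those without a call were Eng (1.51-fold, adjusted p = 0.0599), Smad6 and Smad2, higher, and Ski and Smad3, lower. Both genotypes were at background for 5 of the 16 (Tgfb1, Tgfb2, Tgfbr1, Tgfbr2 and Smad3). Smad7, an inhibitor of the pathway, rose 1.41-fold (adjusted p = 0.0371) and Tgif1, a corepressor of Smad proteins, 1.30-fold (adjusted p = 0.0492). Skil, which also represses Smad proteins, fell at least 2.0-fold to background (adjusted p = 0.0364).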

How the data were processed

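The unit was signal intensity on a linear scale. Per the submitters' processing notes the authors computed it with MAS5. Version and settings were not given in the sources used here, and detection calls were not used. The deposited intensities had a trimmed mean (2% at each end) of 499.6 to 499.9 on every array, so they had been scaled to a common level, and a change of all transcripts alike cannot be seen. Of 12488 probe sets, 66 controls were left out and 12422 tested. Platform annotation gave 10833 of them 1 gene symbol, 396 several and 1193 none, and 10817 matched RefSeq (GRCm38.p6) by gene identifier, which updated the symbols.

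The test was limma's (version 3.58.1, R 4.3.3), on log2(signal + 16), with lmFit and a trended eBayes, HDAC1 knockout minus wild type. Benjamini-Hochberg adjustment ran over all 12422 probe sets, and every adjusted p comes from limma unless stated otherwise. Precision is limited by having 6 arrays. The experiment headers of the 6 arrays were identical and show no batch. A group was at background where its mean or all its arrays lay at or under 116.4. The matrix genes, the other lists and this level were chosen with earlier results of these data known. Named genes are the called members, members above background whose groups did not overlap, the 10 with the highest mean signal, partner chains of called collagens, Hdac1 and called members of other lists. Further members were chosen after their values were seen. Of 6 early mesoderm markers none was called (median log2 difference -0.07). Alternatives are other pseudocounts, normalizations, filters, variance models, array weights, a replicate block, thresholds, single arrays left out and averaging each gene's probe sets.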

Additional observations from a re-analysis of the deposited data

How the results depend on the processing

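The 24 named matrix genes gave 405 values under other settings, of which 371 kept direction and side of the threshold, 24 lost a call, 6 gained one and 4 turned sign. The sign turned for Col1a2 with the mean of all probe sets (-0.01) and without wild type replicate 1 or 2 (-0.03 and -0.09), and for Fn1 without wild type replicate 1 (-0.03), none of them called. With single arrays left out Col1a2 ran from -0.09 to 0.25 and Fn1 from -0.03 to 0.13. Without a trend in eBayes, 0 matrix genes were higher and 1 lower, beside 82 and 50 of all probe sets, against 1 and 5 and 279 and 203 in the main setting. With median centring the median of the matrix genes was -0.165, Timp3 was not called (adjusted p = 0.054), and 344 probe sets were higher and 129 lower. Leaving out the dimmest 25% and 50%, which keeps fewer members, gave medians of -0.327 and -0.31. At an adjusted p under 0.01, 0 matrix genes were higher and 2 lower (153 and 84 of all probe sets), and under 0.1 311 probe sets were lower. With single arrays left out, 0 to 1 matrix genes were higher and 2 to 4 lower, with 150 to 246 probe sets higher and 98 to 174 lower. Without the 3 members on the X chromosome, a setting added after the data were seen, 1 was higher and 4 lower. Same-numbered arrays did not deviate together over all tested probe sets (correlations of -0.013, -0.017 and -0.029). Probe sets at background were included, so these values cannot exclude that the numbers pair the samples. With the replicate number as a block, 1 matrix gene was higher and 4 lower and 119 probe sets were lower, Mmp14 and Timp3 losing their call (adjusted p = 0.0504 and 0.0914) and Mmp3 gaining one (0.0466). The cause of these changes was not tested.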
